A study of Rattus norvegicus with 17 samples.

Results

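Rat fetuses were exposed in utero to DPeP (dipentyl phthalate, a phthalate ester used as a plasticizer). In their testes, 42 genes had a group mean level that fell at each dose step. These genes were chosen from the deposited levels by a rule. The group mean of the TPM level (reads per length of gene, brought to a common sum in every library) had to fall strictly from vehicle through 1, 11, 100 and 300 mg/kg/d. The vehicle mean had to be at least 1 TPM, and the mean at 300 mg/kg/d at most 0.6 of vehicle. Of 24044 named genes, 14996 had a vehicle mean of at least 1 TPM, 477 of these were at or below 0.6 of vehicle at the highest dose, and 111 fell strictly at any size. Both conditions held in 52 genes. A set of 15 genes already known for this response, many of them of steroid synthesis, was left out, and 10 of them had passed. Because every dose contrast served to choose the genes, their levels are a description and carry no test.

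The 17 libraries were made from testes of wild type Sprague Dawley fetuses taken on gestational day 21. Dams were gavaged from day 17 with corn oil alone (vehicle, replicates 01, 08 and 15) or with DPeP in corn oil, 2.5 mL/kg in every group. Replicates 02, 09 and 10 had 1 mg/kg/d, replicates 03, 16 and 17 had 11, replicates 05, 18 and 19 had 100, and replicates 06, 07, 13, 14 and 20 had 300 mg/kg/d. A library held RNA of 1 testis, or of 2 from littermates pooled, and the labels do not tie libraries to dams, so the spread between libraries may hold less than the spread between dams.

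Fetal Leydig cells lie between the testis cords and make testosterone from cholesterol under the control of steroidogenic transcription factors and cAMP. Sertoli cells inside the cords secrete anti-Müllerian hormone and, with Leydig cells, the inhibin subunits that pair into inhibins or activins. Phthalates of intermediate chain length are known to lower steroid synthesis in the fetal rat testis. The genes described here lie beside that pathway: secreted proteins, enzymes of folate, methionine and amino acid metabolism, lipid and redox enzymes, lysosomal proteins, phosphatases, peptidases, receptors and signalling proteins.

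To show what lies upstream of such genes, promoter sequences of 300 bases (250 before and 50 after the annotated start) were taken from RefSeq on the build GRCr8, which 26 of the 42 genes matched by symbol. Of the motifs searched on both strands, the GATA motif AGATAAG stood in 3 of these 26 promoters (Inha, Bhmt and F10, 11.5%) and in 2.77% of 27457 promoters. The NR4A motif AAAGGTCA stood in 1 (Bhmt) and in 1.29% of all, and the SREBP motif TCACNCCAC in 1 (Rasd1) and in 1.13% of all. The NR5A1 motif CAAGGTCA (1.48% of all promoters), the cAMP motifs TGACGTCA (1.91%) and TGACGTAA (0.889%) and the PPAR motif, a direct repeat of AGGTCA with 1 base between (0.0583%), were in 0 of the 26, which says only that these letters are not in these windows. The NR5A1, NR4A and PPAR motifs share the letters AGGTCA, so matches of these can overlap. The promoters of Inha and Bhmt are shown because they hold the GATA motif in genes that separated from vehicle at 11 mg/kg/d, with the GATA and NR4A letters in capitals. The Inha window is chr9:84442859-84443158 on the plus strand, and its motif begins at -145 from the start. The Bhmt window is chr2:26614380-26614679 on the minus strand. It holds AAAGGTCA from -248 and the reverse complement of the GATA motif from -196.
Inha: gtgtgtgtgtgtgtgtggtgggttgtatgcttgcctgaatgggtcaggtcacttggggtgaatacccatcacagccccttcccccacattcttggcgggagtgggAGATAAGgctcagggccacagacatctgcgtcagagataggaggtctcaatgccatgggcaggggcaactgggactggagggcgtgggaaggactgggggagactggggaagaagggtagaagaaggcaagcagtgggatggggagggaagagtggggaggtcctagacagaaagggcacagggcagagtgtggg
Bhmt: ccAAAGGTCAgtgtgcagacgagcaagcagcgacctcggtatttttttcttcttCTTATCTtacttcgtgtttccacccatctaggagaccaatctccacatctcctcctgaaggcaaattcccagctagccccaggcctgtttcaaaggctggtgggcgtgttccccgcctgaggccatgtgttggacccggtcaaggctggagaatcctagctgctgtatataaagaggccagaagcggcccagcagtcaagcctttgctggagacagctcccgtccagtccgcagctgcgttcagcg

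The libraries held 14282274 to 20323488 gene counts, and spike-in rows took 0.608% to 1.37% of all counts. The labelled tissue showed its markers: in vehicle libraries 17 Sertoli cell genes summed to 2882 to 3699.7 TPM and 20 germ cell genes to 712 to 835 TPM. At 100 mg/kg/d a pair of libraries, replicates 05 and 18, was unlike the others, with 9.05% and 7.76% of gene counts from the mitochondrial genome against 4.35% to 6.16% in the other 15. The labels also carry 3 sample codes, whose meaning they do not state. The code of vehicle replicate 15 covers 8 libraries and that of vehicle replicate 01 covers 7, both with every dose, and that of vehicle replicate 08 covers 2. In whole testes, fewer cells of a type and less RNA per cell cannot be told apart. The 20 Leydig markers (8 of them among the 42 or left out as known) summed to 6968 to 8940 TPM in vehicle libraries, 6416 to 8507 at 1, 5253 to 6321 at 11, 4042 to 5069 at 100 and 2564 to 3565 at 300 mg/kg/d. The other 12 Leydig markers had a median log2 fold change by edgeR of 0.007 at 1 mg/kg/d, -0.26 at 11, -0.10 at 100 and -0.48 at 300. The Sertoli sum went the other way from the Leydig sum. It was 3368 to 3863 TPM at 1 mg/kg/d, 3314 to 3435 at 11, 3011 to 4016 at 100 and 4289.6 to 6917 at 300. Of 16 Sertoli genes tested (1 left out as known), edgeR called 7 higher and 0 lower at 300 mg/kg/d (0 also by DESeq2 and at an unadjusted p under 0.05), with a median log2 fold change of 0.51. The number higher was 4 with the sample code as a term and without vehicle replicate 01 or 08. The part of either marker list in these results was not tested.

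Relative to the vehicle mean, the median of the 42 genes was 88.6% at 1 mg/kg/d, 69.4% at 11, 48.4% at 100 and 36.2% at 300. The genes ranged from 47.3% to 98.7% of vehicle at 1 mg/kg/d and from 0% to 59.2% at 300. The onset dose of a gene is defined here as the lowest dose at which, and at each dose above it, every library lay below every vehicle library. Only 2 genes, Spink8 and Smpdl3a, had their onset at 1 mg/kg/d, against 0.107% of all 14996 named genes at or above 1 TPM in vehicle. A further 15 began at 11 mg/kg/d, which makes 17 by that dose (0.740% of all). By 100 mg/kg/d there were 31 (2.82% of all) and by 300 there were 35 (4.76% of all). The other 7 overlapped with vehicle at the highest dose as well, and 6 of them had a vehicle mean under 5 TPM.

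**Figure D1:**
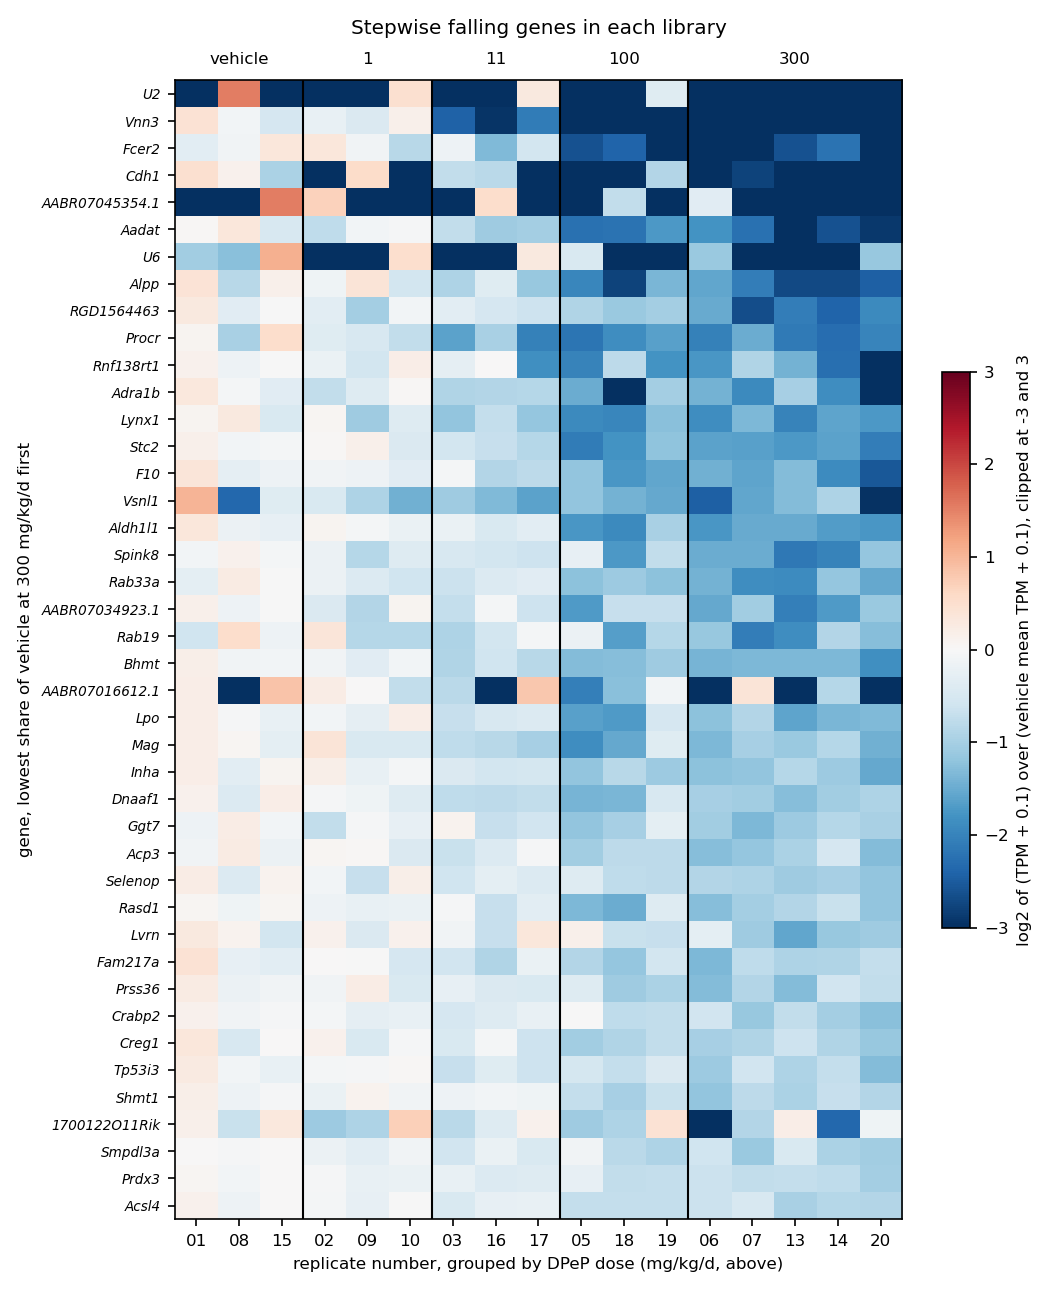
Level of each of the 42 genes (rows, lowest share of vehicle at 300 mg/kg/d at the top) in each of the 17 libraries (columns, by dose), as log2 of (TPM + 0.1) over (vehicle mean TPM + 0.1), clipped at -3 and 3. Blue deepens from the left to the right in most rows, and the sparse small RNA rows (U2, U6) and AABR07045354.1 are uneven.

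Counted dose by dose, every library was below every vehicle library in 3 genes at 1 mg/kg/d (3.39% of the same 14996 genes), 18 at 11 (3.31%), 31 at 100 (7.95%) and 35 at 300 (4.76%). In the fit of all genes with edgeR's quasi-likelihood test, 38 of the 42 genes could be tested. Of these, 0 were called lower at 1 and at 11 mg/kg/d (0.00% of all genes at both doses), 18 at 100 (1.03% of all genes) and 34 at 300 (1.41% of all genes). At an unadjusted p under 0.05, the numbers were 2 and 21 genes at the 2 lower doses, beside 891 and 633 of all 18005 genes tested. DESeq2 called 0 and 24 of all genes there. These counts restate the choice of genes and nothing is read from them.

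Inha was the most abundant of the secreted group and of all 42. It encodes the alpha subunit of inhibins, hormones that oppose activins, and lies on chromosome 9 at 76993589 to 76997248 (mRatBN7.2). Vehicle libraries held 991, 689 and 912 TPM, those at 1 mg/kg/d 982, 740.0 and 828, at 11 645, 587 and 597, at 100 381, 485 and 405 and at 300 368, 382, 481, 405 and 298. The libraries at 1 mg/kg/d lay among those of vehicle, and each library from 11 mg/kg/d upward lay below both groups. The mean went from 864 ± 157 TPM (SD, n = 3) to 609.6 ± 30.8 TPM (SD, n = 3) at 11 and 387 ± 65.8 TPM (SD, n = 5) at 300 mg/kg/d, 2.23-fold lower. The fall to 11 mg/kg/d was 53.3% of the whole, and the last step from 100 to 300 was 7.703%.

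Stc2, which encodes stanniocalcin 2, a secreted glycoprotein that inhibits a protease of insulin-like growth factor binding proteins, had the same order. It is on chromosome 10, 16250853 to 16262973. Its levels were 83.5, 70.8 and 72.03 TPM in vehicle, 77.3, 84.2 and 56.1 at 1, 51.7, 46.6 and 41.7 at 11, 17.6, 21.5 and 32.6 at 100 and 24.7, 24.3, 22.9, 24.6 and 17.9 at 300 mg/kg/d. The libraries at 11 mg/kg/d sat between the groups on either side without overlap, while those at 100 and 300 overlapped. The means were 75.5 ± 7.01 TPM (SD, n = 3) and 22.9 ± 2.88 TPM (SD, n = 5), 3.299-fold apart.

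Spink8, a gene of the Kazal-type serine peptidase inhibitor family on chromosome 8 (109817365 to 109828994), had its onset at the lowest dose. Vehicle libraries held 55.8, 65.2 and 57 TPM and those at 1 mg/kg/d 52.7, 33 and 45.7. At 11 they held 42.7, 40.2 and 38.8, at 100 50.3, 18.01 and 35.5 and at 300 21.2, 21.1, 13.3, 14.7 and 26.4. The highest library at 100 mg/kg/d was replicate 05, 1 of the pair with the high mitochondrial share, and it lay close to the highest library at 1 mg/kg/d. The mean at 300 mg/kg/d was 3.07-fold below vehicle, and 38.2% of the fall came in the last step.

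Selenop encodes selenoprotein P, the plasma protein that carries selenium to testis and brain. Its libraries held 774, 496 and 705 TPM in vehicle, 625, 409.5 and 740.1 at 1, 437, 541 and 496 at 11, 500.3, 386 and 379 at 100 and 361, 345, 316, 329 and 291 at 300 mg/kg/d. Those at the highest dose lay below all others, while vehicle replicate 08 lay within the range of 11 and 100 mg/kg/d, which put the onset at 300. Exons of Selenop overlap those of Ccdc152, and the kit did not mark strand, so its counts are uncertain. F10, coagulation factor X, went from 8.65 ± 2.13 TPM (SD, n = 3) to 2.62 ± 0.81 TPM (SD, n = 5) with its onset at 100 mg/kg/d. Lpo, a heme peroxidase of secretions, went from 6.87 ± 1.02 TPM (SD, n = 3) to 2.81 ± 0.554 TPM (SD, n = 5) with its onset at 11. Over the 6 secreted genes the median at 300 mg/kg/d was 36.7% of vehicle.

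Enzymes of folate, methionine and amino acid metabolism made up 4 of the 42, with a median of 34.2% of vehicle at 300 mg/kg/d. Aadat, an aminotransferase of kynurenine and aminoadipate on chromosome 16 (29509394 to 29544332), was the lowest of them at 17.3%. It had 13.3, 16.7 and 9.305 TPM in vehicle, 7.75, 12.4 and 12.9 at 1, 7.81, 6.17 and 6.43 at 11, 2.69, 2.73 and 3.897 at 100 and 3.72, 2.71, 1.17, 2.06 and 1.66 at 300 mg/kg/d. Libraries at 1 mg/kg/d overlapped with vehicle, and those at 11 were below every vehicle library and above every library at 100 or 300.

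Bhmt encodes the enzyme that remethylates homocysteine to methionine with betaine. The gene lies on chromosome 2, 24859873 to 24879742. Vehicle libraries held 25.2, 20.9 and 21.2 TPM, those at 1 mg/kg/d 20.7, 17.6 and 21.2, at 11 11.9, 14.8 and 12.6, at 100 8.98, 9.23 and 10.7 and at 300 8.46, 8.83, 8.801, 8.703 and 6.15. From 1 mg/kg/d upward no group overlapped with the next, and only vehicle and 1 mg/kg/d did. The mean went from 22.4 ± 2.399 TPM (SD, n = 3) to 8.19 ± 1.15 TPM (SD, n = 5), 2.74-fold lower, with 65.8% of the fall by 11 mg/kg/d.

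Both folate enzymes came in later. Aldh1l1, formyltetrahydrofolate dehydrogenase, had 30.8, 21.3 and 20.5 TPM in vehicle, 25.8, 23.4 and 21.2 at 1, 21.2, 17.7 and 19.5 at 11, 7.17, 6.38 and 12.3 at 100 and 7.21, 8.39, 8.38, 7.55 and 7.13 at 300 mg/kg/d. Its step from 11 to 100 held 65.7% of the fall. Shmt1, the cytosolic serine hydroxymethyltransferase that moves a carbon from serine to folate, had 63.02, 50.6 and 54.2 TPM in vehicle, 48.5, 60.01 and 51.7 at 1, 49.98, 52.5 and 51.1 at 11, 34.2, 27.9 and 35.1 at 100 and 24.5, 32.3, 28.8, 34.4 and 30.4 at 300 mg/kg/d. Here too the groups split between 11 and 100 mg/kg/d, with 72.7% of the fall in that step. Exons of Shmt1 overlap those of Smcr8, which makes its counts uncertain in the same way as those of Selenop.

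**Figure D2:**
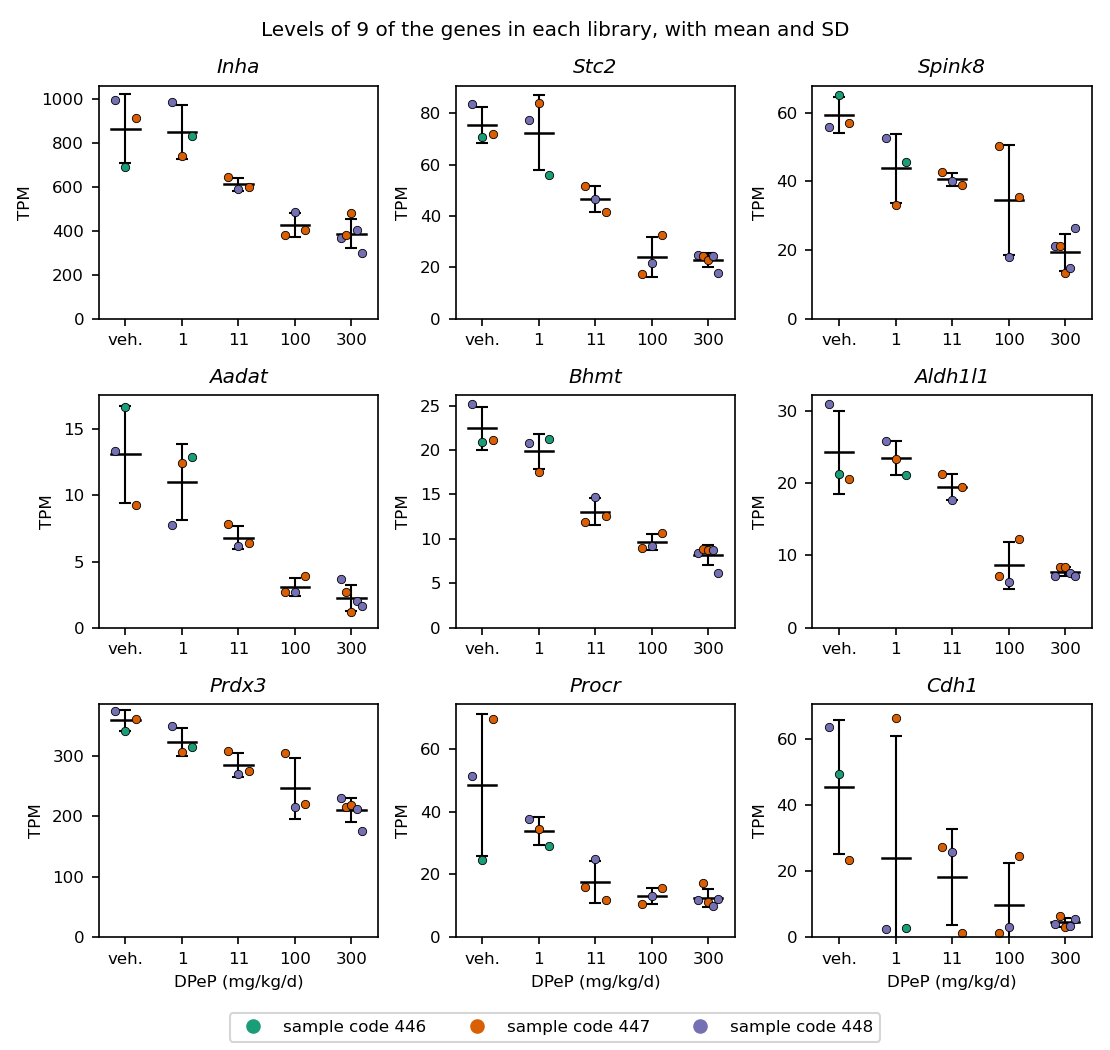
TPM (y axis, from 0) of 9 of the genes in each library (points, coloured by sample code) by dose (x axis, mg/kg/d), with the group mean and SD as bars (n = 3, and n = 5 at 300 mg/kg/d). Inha, Stc2, Aadat and Bhmt separate from vehicle at 11 mg/kg/d and Aldh1l1 at 100, while Cdh1 splits into high and low libraries within groups.

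In lipid, vitamin and redox metabolism, 6 genes had a median of 55.3% of vehicle at 300 mg/kg/d, and 5 of them had their onset at 1 or 11. Vnn3, of the vanin family of pantetheinases, stood apart within this group. It had 4.74, 3.33 and 2.46 TPM in vehicle, 2.98, 2.56 and 3.93 at 1, 0.569, 0.372 and 0.74 at 11, 0.26, 0.235 and 0 at 100 and 0, 0.0766, 0, 0 and 0.157 at 300 mg/kg/d. The step from 1 to 11 mg/kg/d held 75.1% of its fall and left no overlap. The 5 libraries at 300 mg/kg/d held 3 reads in all against 134 in vehicle, 1.31% of vehicle per gene count (exact 95% interval 0.268% to 3.93%, counting error only).

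Prdx3, a peroxiredoxin that removes peroxide in mitochondria, had the most even descent in its group means of TPM. In the edgeR fit, its log2 fold change was -0.42 at 11 and -0.40 at 100 mg/kg/d, so it did not fall over that step. Its libraries held 374, 341 and 362 TPM in vehicle, 349, 307 and 315 at 1, 308, 271 and 276 at 11, 305, 215 and 219.9 at 100 and 231, 215, 219, 212 and 176 at 300 mg/kg/d. The 4 steps took 23.9%, 26.1%, 25.8% and 24.1% of the fall. Replicate 05 was again the high library at 100 mg/kg/d, and the even size of the last steps rests on it. Replicates 18 and 19, at 215 and 219.9 TPM, lay within the range of the libraries at 300 mg/kg/d. With 58.7% of vehicle left at the top dose, Prdx3 was close to the size limit of the rule.

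Smpdl3a, a secreted phosphodiesterase related to acid sphingomyelinase, was the other gene with its onset at 1 mg/kg/d. Vehicle libraries held 42.4, 40.8 and 42.2 TPM, a narrow range, and those at 1 mg/kg/d held 37.1, 33.7 and 39.2. Above that it had 28.2, 36.2 and 30.5 at 11, 39, 23.8 and 21.8 at 100 and 27.8, 19.4, 30.6, 21.4 and 20.2 at 300 mg/kg/d. The separation at 1 mg/kg/d was small, with a mean at 87.6% of vehicle. Acsl4, an acyl-CoA synthetase that prefers arachidonic acid, went from 24.4 ± 2.45 TPM (SD, n = 3) to 14.8 ± 0.0762 TPM (SD, n = 3) at 100 and 14.5 ± 2.06 TPM (SD, n = 5) at 300 mg/kg/d, with its onset at 11. Crabp2, which carries retinoic acid to its nuclear receptor, went from 250.2 ± 21.02 TPM (SD, n = 3) to 132 ± 26.6 TPM (SD, n = 5), and its onset was at 300 because replicate 05 at 100 mg/kg/d held 249 TPM, within the vehicle range. Tp53i3, a quinone reductase-like p53 target, had an onset of 11 mg/kg/d and a mean at 300 mg/kg/d of 53.5% of vehicle.

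Of 10 genes of receptors, adhesion and signalling, 4 had their onset at 11 mg/kg/d and 3 at 100, and their median at 300 mg/kg/d was 29.9% of vehicle. Procr encodes the protein C receptor of endothelium. Its levels were 51.6, 24.6 and 69.6 TPM in vehicle, 37.8, 34.6 and 29.02 at 1, 15.98, 24.8 and 11.8 at 11, 10.6, 13.3 and 15.5 at 100 and 11.8, 17.2, 11.2, 9.93 and 12.2 at 300 mg/kg/d. Vehicle spread widely between its libraries, and replicate 08, the lowest, was reached by replicate 16 at 11 mg/kg/d. The mean at 300 mg/kg/d was 25.6% of vehicle, or 32.7% without vehicle replicate 15. The summed level of 12 endothelial markers was 311 to 336 TPM in vehicle, 329 to 429 at 1, 304 to 338 at 11, 161 to 305 at 100 and 269 to 304 at 300 mg/kg/d. At 100 mg/kg/d, the onset dose of Procr, replicates 05 and 18 held 161 and 193 TPM and replicate 19 held 305. Of the 12, 1 was called lower there by edgeR, 3 by DESeq2 and 8 at an unadjusted p under 0.05, with a median log2 fold change of -0.53. Over all genes, edgeR called 185 of 18005 lower there and DESeq2 590 of 15957. An unadjusted p under 0.05 was met by 3458 of the 18005, in either direction. The edgeR call among the 12 was lost with the sample code as a term and without any 1 vehicle library, replicate 05 or replicate 18. Without replicate 19 there were 9 lower and 1 higher, beside 2044 lower and 2206 higher of all 18316 genes tested. At 300 mg/kg/d 0 of the 12 were called by edgeR or DESeq2 (2 lower at an unadjusted p under 0.05). Their part in the levels of Procr was not tested.

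Adra1b, an adrenergic receptor for noradrenaline, had 4.36, 3.37 and 2.76 TPM in vehicle and 1.84, 1.84 and 1.88 at 11 mg/kg/d, a very narrow group. It had 2.04, 2.64 and 3.56 at 1, 1.19, 0.124 and 1.68 at 100 and 1.24, 0.865, 1.695, 0.885 and 0.221 at 300 mg/kg/d, and the last groups overlapped. Lynx1, a membrane-anchored modulator of nicotinic acetylcholine receptors, went from 3.54 ± 0.918 TPM (SD, n = 3) through 1.72 ± 0.344 TPM (SD, n = 3) at 11 to 1.04 ± 0.206 TPM (SD, n = 5). Mag, a myelin-associated adhesion protein, had 53.4% of vehicle at 11 and 43.2% at 300 mg/kg/d. Rab33a, a Rab GTPase of vesicle traffic, went from 22.02 ± 4.19 TPM (SD, n = 3) to 7.47 ± 1.65 TPM (SD, n = 5), also from 11 mg/kg/d. All 4 were thus below every vehicle library from 11 mg/kg/d on, at levels from 2.46 to 22.02 TPM in vehicle.

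Fcer2, the low-affinity receptor of immunoglobulin E, had 2.05, 2.38 and 3.32 TPM in vehicle, 3.31, 2.38 and 1.403 at 1, 2.32, 0.965 and 1.73 at 11, 0.337, 0.406 and 0.238 at 100 and 0.207, 0, 0.335, 0.474 and 0.0677 at 300 mg/kg/d. Its libraries at 100 and 300 mg/kg/d were below all of the rest, and 56.9% of the fall lay in the step between 11 and 100. Rasd1, a small GTPase induced by glucocorticoids, had every library below vehicle at 1 mg/kg/d (23.3, 21.98 and 22.5 against 26.96, 23.5 and 26.99 TPM), but replicate 03 at 11 mg/kg/d was back at 25.3. Its onset was therefore 100 mg/kg/d, where the libraries held 10.1, 9.17 and 19.8 TPM. Rab19, another Rab GTPase, had a vehicle mean of 2.399 TPM and 35.9% of it at 300 mg/kg/d, the dose of its onset.

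Cdh1, E-cadherin of epithelial cell contacts, was uneven within groups. Its libraries held 63.5, 49.3 and 23.3 TPM in vehicle, 2.297, 66.5 and 2.84 at 1, 27.2, 25.7 and 1.39 at 11, 1.28, 2.97 and 24.5 at 100 and 3.99, 6.49, 3.08, 3.402 and 5.33 at 300 mg/kg/d. In all, 7 libraries lay between 23.3 and 66.5 TPM and 10 between 1.28 and 6.49, with nothing between. The high range held 3 libraries of vehicle, 1 at 1 mg/kg/d, 2 at 11, 1 at 100 and 0 at 300. Cdh1 stands in a list of mesonephric duct and epididymis genes. Of the 10 others tested, 0 were called lower at 300 mg/kg/d by edgeR, by DESeq2 or at an unadjusted p under 0.05, and their median log2 fold change was 0.38. The summed level of the list's 13 genes, Cdh1 included, was 421 to 459 TPM in vehicle and 552 to 694 at 300 mg/kg/d. Lcn2, a secreted iron-siderophore carrier, was the single gene of that list called higher by edgeR (log2 fold change 2.01, SE 0.288, adjusted p = 0.000272), and DESeq2 called 2.

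Vsnl1, a calcium sensor protein, rested on 1 library. Vehicle replicate 01 held 14.2 TPM, replicate 15 5.39 and replicate 08 1.29, below most exposed libraries. The mean at 300 mg/kg/d was 30.7% of vehicle with all libraries and 63.8% without vehicle replicate 01, over the limit of the rule.

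Lysosomal, phosphatase and peptidase genes were 6, with a median of 49.5% of vehicle at 300 mg/kg/d, 4 of them with their onset at 100. Creg1, a glycoprotein of lysosomes and secretions, had 79.3, 44.9 and 62.6 TPM in vehicle, 67.8, 45.2 and 60.6 at 1, 45.4, 59.99 and 40.7 at 11, 30.2, 33.1 and 37.05 at 100 and 30.9, 33.1, 40.5, 33.4 and 28.4 at 300 mg/kg/d. Its last groups were alike, with 0.635% of the fall in the last step. Without vehicle replicate 01 the mean at 300 mg/kg/d was 61.9% of vehicle, just over the limit. Alpp, an alkaline phosphatase, had 3.73, 1.52 and 3.13 TPM in vehicle, 1.43, 2.14 and 1.22 at 11, 0.644, 0.324 and 1.01 at 100 and 0.881, 0.591, 0.342, 0.346 and 0.432 at 300 mg/kg/d. It was the lowest of these 6 genes at 18.6% of vehicle.

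Among the rest of the lysosomal, phosphatase and peptidase genes, Ggt7, of the gamma-glutamyltransferase family, was at 47.7% of vehicle. Acp3, an acid phosphatase, was at 48.6%, and both had their onset at 100 mg/kg/d. Prss36, a serine protease, was at 52.3% with its onset at 11. Lvrn, an aminopeptidase of the cell membrane, had 5.91, 5.17 and 3.25 TPM in vehicle and 3.89, 2.23, 1.56, 2.12 and 2.24 at 300 mg/kg/d, and the ranges overlapped. It was at 93.4% of vehicle at 11 mg/kg/d and at 77.9% at 100, the highest share of the 42 genes at both doses.

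The last 10 genes had a role in cilia, were small RNA genes or had no role that is described here. Dnaaf1, which takes part in the assembly of ciliary dynein arms, had 7.55, 5.12 and 7.92 TPM in vehicle, 6.71, 6.32 and 5.26 at 1, 4.04, 3.94 and 4.06 at 11, 2.53, 2.604 and 4.86 at 100 and 3.38, 3.29, 2.77, 3.27 and 3.57 at 300 mg/kg/d. The group at 11 mg/kg/d was tight and fully below vehicle, and 57.7% of the fall came in that step. RGD1564463 (3.27 ± 0.744 TPM (SD, n = 3) to 0.712 ± 0.254 TPM (SD, n = 5)), Rnf138rt1 (27.3% of vehicle at 300 mg/kg/d), AABR07034923.1 (35.5%) and Fam217a (52.2%) had their onset at 100. For Fam217a the share was 63.7% without vehicle replicate 01 and 61.9% with group medians.

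The other 5 of these genes rested on few reads and had no onset. U2 and U6, genes of spliceosomal small nuclear RNA, which carry no poly(A) tail, had 5 and 7 reads over the 3 vehicle libraries. All vehicle reads of U2 were in replicate 08. At 300 mg/kg/d U2 was listed at 0 in all 5 libraries and U6 had 2 reads, 16.8% of vehicle per gene count (exact 95% interval 1.70% to 88.1%). AABR07045354.1 had 4 reads in vehicle, all in replicate 15, and 1 at 300 mg/kg/d, 14.7% of vehicle (0.298% to 148%). AABR07016612.1 had 11 and 7 reads, and 1700122O11Rik 23 and 21. Apart from 1700122O11Rik, these genes were too sparse to enter the fit of all genes. At this depth a dose order could not be made out for them.

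Across the 42 genes, the steps differed in size. The largest step lay between vehicle and 1 mg/kg/d in 8 genes, between 1 and 11 in 16, between 11 and 100 in 14 and between 100 and 300 in 4. Of the 8, U2, U6 and AABR07045354.1 rested on few reads, Vsnl1 on 1 vehicle library, and Cdh1 was split within groups. The others were Spink8, Smpdl3a and Rab19. The median share of the fall was 20.1%, 27.8%, 32.6% and 9.33% for the 4 steps in order. By 11 mg/kg/d, 22 genes had 50% or more of their fall, among them Inha, Stc2, Aadat, Bhmt, Procr and Selenop. The same sparse or uneven genes (U2, U6, AABR07045354.1, Vsnl1 and Cdh1) are counted in the 22. The last step took under 10% of the fall in 23 genes, and in 14 the mean at 300 mg/kg/d was still 90% or more of that at 100. In 5 genes (U2, Vnn3, Cdh1, RGD1564463 and Spink8) it was 60% or less of that at 100. For most of these that ratio rests on 1 library or few reads. At 100 mg/kg/d U2 was above 0 in replicate 19 alone, and Cdh1 was high there alone (24.5 TPM). Replicate 05 was the high library of Spink8 (50.3 TPM), and Vnn3 had 3 reads at 300 mg/kg/d.

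**Figure D3:**
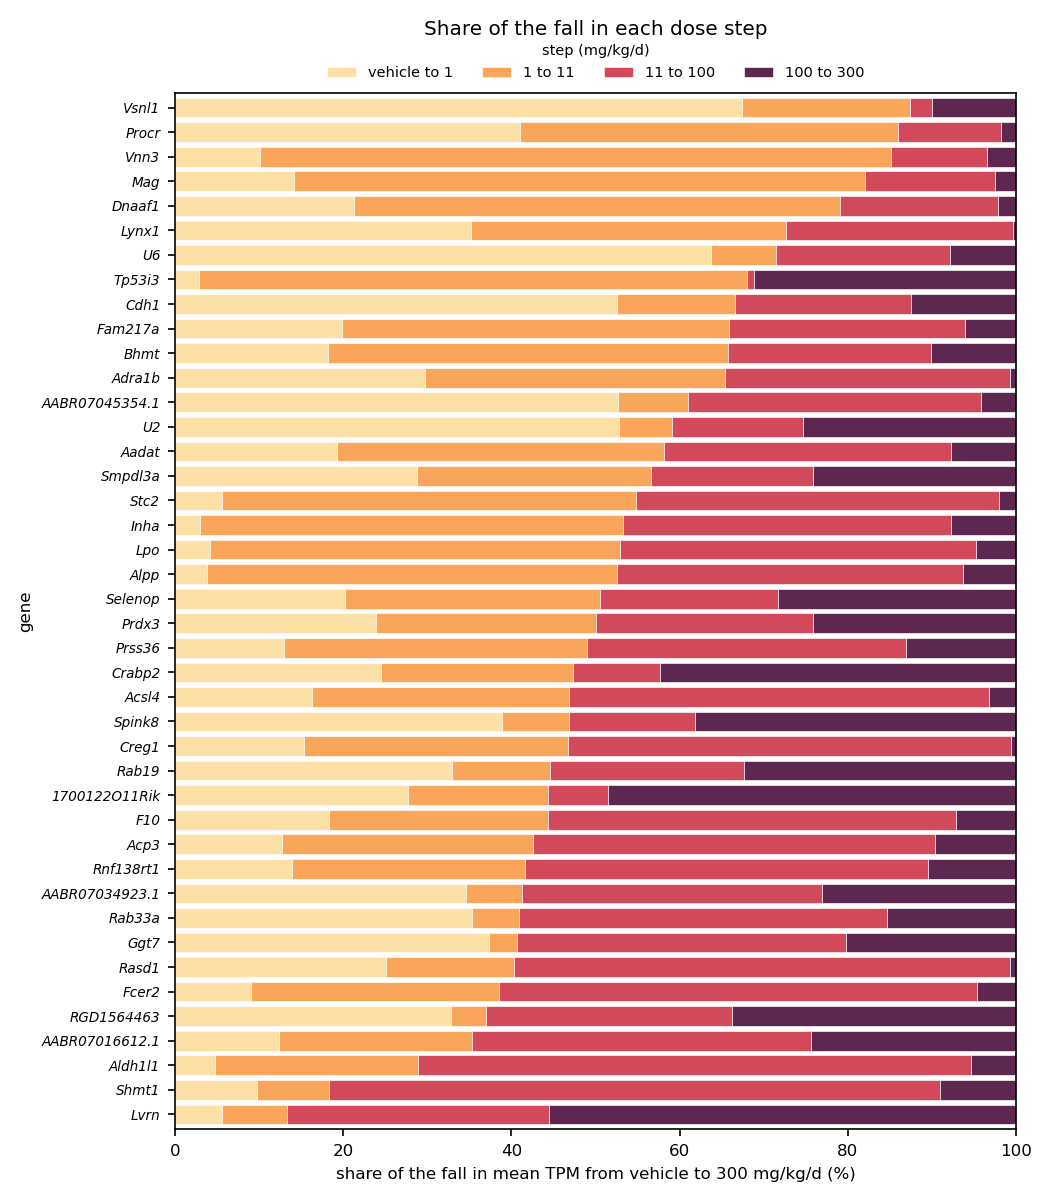
Share of the fall in mean TPM from vehicle to 300 mg/kg/d (x axis, %) that lay in each of the 4 dose steps (colours) for each of the 42 genes (rows, sorted by the share reached at 11 mg/kg/d). The 11 to 100 step is widest for Shmt1 (72.7%) and the 1 to 11 step for Vnn3 (75.1%), and the darkest segment, 100 to 300, is narrow in most rows.

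Neighbouring doses were also compared library by library. All libraries at 1 mg/kg/d lay below all vehicle libraries in 3 genes, Spink8, Smpdl3a and Rasd1 (3.39% of all 14996). All at 11 lay below all at 1 in 10 genes (5.49% of all), among them Inha, Stc2, Bhmt, Procr, Vnn3 and Tp53i3. All at 100 lay below all at 11 in 17 genes (12.6% of all), among them Aadat, Aldh1l1, Shmt1, Rab33a and Acsl4. All at 300 lay below all at 100 in 3 genes, Bhmt, Selenop and RGD1564463 (1.21% of all). Mean levels fell at each step by the rule, while in every gene the libraries of neighbouring doses overlapped at 1 step or more.

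Seen per library, the median of the 42 genes was 112% of the vehicle mean in vehicle replicate 01, 91.5% in 08 and 96.5% in 15. It was 92.6%, 81.9% and 87.2% in replicates 02, 09 and 10 at 1 mg/kg/d, and 62.9%, 67.3% and 66.9% in 03, 16 and 17 at 11. At 100 mg/kg/d it was 42.7% in replicate 05, 40.7% in 18 and 53.7% in 19. The libraries at 300 mg/kg/d held 37.4%, 41.4%, 37.1%, 41.5% and 36.6%. Medians at 11 mg/kg/d lay clear of the doses on either side, whereas replicates 05 and 18 at 100 lay in or next to the range of 300. Vehicle replicate 01 was the highest vehicle library in 26 genes.

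**Figure D4:**
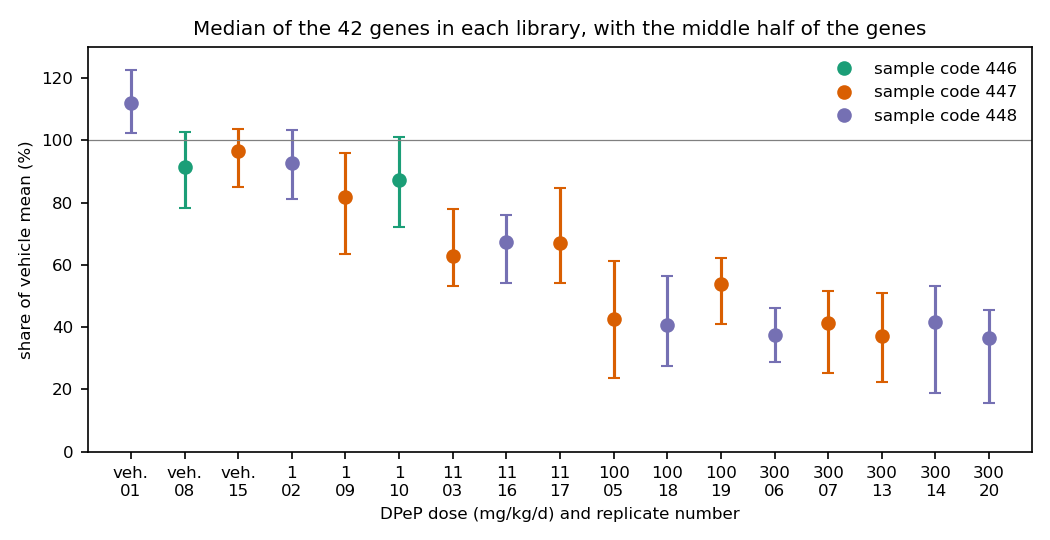
Median (points) and middle 50% (bars) over the 42 genes of the level in each library as % of the vehicle mean (y axis), by dose and replicate (x axis), coloured by sample code. The 3 libraries at 11 mg/kg/d sit between 62.9% and 67.3%, below those at 1 mg/kg/d and above those at 100 and 300.

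Within a sample code, vehicle is a single library, and a gene at 0 in it could not be compared. Among the 8 libraries that share the code of vehicle replicate 15, this left out U2. There the mean was below vehicle in 27 genes at 1 mg/kg/d, 40 at 11, 40 at 100 and 41 at 300. The medians were 83.1%, 68.8%, 52.1% and 43.6% of vehicle. Among the 7 with the code of vehicle replicate 01, U2 and AABR07045354.1 were left out in the same way. The mean was below vehicle in 34, 39, 40 and 40 genes, with medians of 81.9%, 58.9%, 35.6% and 36.0%. The strict order over all 5 groups held in 10 genes within the former and in 15 within the latter, and in both for Bhmt, Prdx3 and Vsnl1. The code of vehicle replicate 08 held 1 library besides, at 1 mg/kg/d. Without replicates 05 and 18 at 100 mg/kg/d, 27 of the 42 genes kept the strict order, and for Inha, Stc2, Bhmt and Aadat the single library left was at 46.8%, 43.2%, 47.5% and 29.7% of vehicle. Membership survived each of the 17 single omissions for 2 genes, Aadat and Bhmt, and the median gene kept it in 14.

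Close relatives and partners of the genes were compared, chosen by name once the 42 were known: 34 for 21 of the genes, of which 33 matched and 32 were tested by edgeR. At 300 mg/kg/d 1 fell and 1 rose. At 100 mg/kg/d 1 rose (Stc1, a call lost without vehicle replicate 08 or 15) and 0 fell by edgeR or DESeq2 (6 lower at an unadjusted p under 0.05). Stc1, the paralog of Stc2, went the other way, from 6.07 ± 1.23 TPM (SD, n = 3) in vehicle to 14.4 ± 7.27 TPM (SD, n = 3) at 100 and 24.9 ± 5.61 TPM (SD, n = 5) at 300 mg/kg/d (log2 fold change 1.98, SE 0.243, adjusted p = 4.44e-05 by edgeR). Vnn1, the paralog of Vnn3, fell (log2 fold change -0.50, SE 0.117, adjusted p = 0.0243), and this call was lost with the sample code as a term and when any of 5 single libraries was left out. The other relatives had log2 fold changes between -0.58 and 0.70 at 300 mg/kg/d and were not called. The difference between a gene and its relative was not tested.

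The beta subunits that pair with Inha were among them. Inhba held 95.6 ± 11.99 TPM (SD, n = 3) in vehicle and 85.4 ± 14.6 TPM (SD, n = 5) at 300 mg/kg/d, and Inhbb 240.3 ± 20.4 TPM (SD, n = 3) and 243 ± 32.8 TPM (SD, n = 5). Shmt2, the mitochondrial counterpart of Shmt1, had 50.8 ± 7.14 TPM (SD, n = 3) and 48.2 ± 4.19 TPM (SD, n = 5). Prdx5, which shares the mitochondrial compartment with Prdx3, had 83.6 ± 7.52 TPM (SD, n = 3) and 81.8 ± 6.4 TPM (SD, n = 5). Crabp1 had 35.6 ± 9.64 TPM (SD, n = 3) and 45.2 ± 7.34 TPM (SD, n = 5), and Acsl3, the most abundant of the acyl-CoA synthetases compared with Acsl4, had 71.97 ± 1.86 TPM (SD, n = 3) and 69.02 ± 7.195 TPM (SD, n = 5). In each of these 6 the means at the ends of the dose range differed by less than the sum of their SDs. Among the other relatives that edgeR did not call, Prdx1, Rab33b and Smpdl3b differed by more. Prdx1 went from 896 ± 8.97 TPM (SD, n = 3) in vehicle to 795 ± 43.5 TPM (SD, n = 5) at 300 mg/kg/d. Rab33b went from 24.96 ± 0.971 TPM (SD, n = 3) to 21.5 ± 1.59 TPM (SD, n = 5). Smpdl3b went up, from 36.9 ± 2.77 TPM (SD, n = 3) to 45.4 ± 4.88 TPM (SD, n = 5). Inhba was lower at 100 mg/kg/d, at 58.9 ± 17.5 TPM (SD, n = 3), a gap from vehicle above the sum of the SDs that edgeR did not call (log2 fold change -0.61, SE 0.214, adjusted p = 0.140), and Inhbb held 187 ± 44.7 TPM (SD, n = 3).

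Lists of other genes of the same pathways, without the 42 and the genes left out, were counted beside all 18005 genes tested, of which 253 fell and 179 rose at 300 mg/kg/d (median log2 fold change 0.01). Of 31 glutathione and antioxidant enzymes, the list that holds Prdx3, 5 fell at 300 mg/kg/d, with a median of -0.20. Gsta1, a glutathione transferase, went from 575 ± 34.2 TPM (SD, n = 3) to 212 ± 20.4 TPM (SD, n = 5) (log2 fold change -1.51, SE 0.175, adjusted p = 2.19e-05 by edgeR). Sod2, the superoxide dismutase of mitochondria, went from 60.5 ± 2.98 TPM (SD, n = 3) to 38.2 ± 2.48 TPM (SD, n = 5) (-0.73, SE 0.143, adjusted p = 0.00611), and the others were Gclc (-0.54), Sod3 (-0.55) and Ephx1 (-0.80). The number was 1 without vehicle replicate 15, 3 without vehicle replicate 01 or replicate 07, and 9 with only the compared groups. The call of Gsta1 held in each of 14 alternatives and those of Sod2 and Gclc in 13 (lost without vehicle replicate 15). That of Sod3 held in 11 and that of Ephx1 in 9. Ephx1 also stands among the Leydig markers counted below. At 100 mg/kg/d 1 of the 31, Sod3, fell, a call lost with only the compared groups and without replicates 05 and 18. Without replicate 19, 5 of the 31 fell and 4 rose, beside 2044 lower and 2206 higher of all 18316 genes tested there.

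Of 15 fatty acid synthesis genes, the list that holds Acsl4, 5 fell at 300 mg/kg/d, with a median of -0.19. Acss2, which makes acetyl-CoA from acetate, went from 32.8 ± 1.22 TPM (SD, n = 3) to 16.97 ± 2.59 TPM (SD, n = 5) (log2 fold change -1.02, SE 0.130, adjusted p = 7.16e-05 by edgeR), and Me1, a source of NADPH, from 224 ± 13.8 TPM (SD, n = 3) to 134 ± 28.7 TPM (SD, n = 5) (-0.81, SE 0.131, adjusted p = 0.00115). Scd, Elovl5 and Fads1, enzymes that desaturate or elongate fatty acids, fell by 1.30, 0.42 and 0.44 on the log2 scale. The number was 2 without vehicle replicate 08 and 3 without vehicle replicate 01 or 15 or replicate 13, 14 or 20. The calls of Acss2 and Me1 held in each of 14 alternatives and that of Elovl5 in 13. Fads1 was called in 8, lost without each of the 3 vehicle libraries, and Scd in 6, lost without each of them and with the sample code as a term. Of the 15, 4 fell at 100 mg/kg/d, 1 without vehicle replicate 01 or 15, 2 without vehicle replicate 08 or replicate 05, and 0 without replicate 18. Without both 05 and 18 there were also 0, where the spread of the lone library left was taken from the other groups.

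In the list of activin, Nodal and TGF-beta family genes that holds Inha, 3 of 21 rose at 300 mg/kg/d: Amh, the hormone of Müllerian duct regression (log2 fold change 0.83, SE 0.187, adjusted p = 0.0180 by edgeR), its receptor Amhr2 (0.86, SE 0.161, adjusted p = 0.00435) and Bmp7 (0.79, SE 0.192, adjusted p = 0.0291). By edgeR and by DESeq2 0 of the 21 fell (1 lower at an unadjusted p under 0.05). Of these 3, 1 was called with the sample code as a term and without vehicle replicate 08 or 15 or replicate 14, and Amhr2 was called in each of 14 alternatives. Amh is also 1 of the 16 Sertoli genes, of which 7 rose at that dose with a summed level above that of vehicle, and their part in the rise was not tested. Of 22 retinoid and xenobiotic enzymes beside Crabp2, 1 rose, Cyp26b1, which degrades retinoic acid (0.66, SE 0.156, adjusted p = 0.0247), and 0 rose with the sample code as a term or without vehicle replicate 08 or 15 or replicate 13. Of the 12 Leydig markers left after the 42 and the known genes were taken out, 5 fell, with a median of -0.48, and 3 fell without vehicle replicate 01 or 15 or replicate 07, 13 or 20. Among them, Prlr, the prolactin receptor, went from 12.4 ± 4.71 TPM (SD, n = 3) to 2.78 ± 0.712 TPM (SD, n = 5) (log2 fold change -2.21, SE 0.265, adjusted p = 3.23e-05), a call that held in each of 14 alternatives. At 1 and 11 mg/kg/d edgeR called 0 genes in all, these lists included.

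At the edges of the rule, Smpdl3a (57.1% of vehicle at 300 mg/kg/d), Prdx3 (58.7%) and Acsl4 (59.2%) were just inside the size limit, and Nanos1 (60.5%), Plaat1 (60.8%) and Sod2 (63.1%), which also fell strictly, just outside. By level, 1700122O11Rik (1.23 TPM in vehicle), AABR07045354.1 (1.68) and U2 (2.01) were just inside, and Serpina9 (0.853), U3 (0.846) and Impg1 (0.756) just outside. The 42 genes lay on 18 chromosomes, and the closest pair, Ggt7 and Procr on chromosome 3, stood 252888 bases apart.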

How the data were processed

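PolyA-selected RNA of 17 fetal testis libraries was sequenced from NEBNext Ultra II RNA libraries, a kit that does not mark strand, per the labels' protocols. The submitters' processing notes name Trimmomatic 0.36, STAR 2.5.2b, featureCounts of Subread 1.5.2 and the build mRatBN7.2, without the gene model release or the strand setting, and name DESeq2 and limma without a role. The deposited count files give raw read counts per gene with coordinates and exon length, per the file headers. A deposited table of the same counts differed from them in 0 values. The deposited TPM table repeats rows (47125 for 30652 identifiers) and is therefore handled as a score. With each identifier kept 1 time, a recomputation from counts and exon lengths deviated by 5e-05 or less. A deposited log2 table was not used here.

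The 42 genes and all lists were chosen with earlier results of these data known. Levels are the authors' TPM, spike-ins included in their total. The 92 spike-in rows were left out of the tests. Genes were named by the rule that takes those in a list, the 15 with the lowest share of vehicle, the 10 with the highest vehicle level, those with the earliest onset, those at the thresholds, and those with a textbook role.

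Counts were tested with edgeR 4.0.16 in R 4.3.3 (quasi-likelihood F test, TMM, filterByExpr by group, all 17 libraries in 1 fit, Benjamini-Hochberg over 18005 genes, called under 0.05). The fit was tested on simulated data. Alternatives were RLE size factors, no low count filter, the sample code as a term, only the compared groups, single libraries left out, replicates 05 and 18 left out, and DESeq2 1.42.0. For the rule and the onset they were CPM, medians, geometric means (0.1 TPM added), other thresholds and each sample code alone. All doses are compared with the same 3 vehicle libraries. Heat map values add 0.1 TPM. Intervals are exact, pool the reads of a group and cover counting error only. They make no allowance for the choice of these genes by their fall, so they test nothing.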

Additional observations from a re-analysis of the deposited data

Results flagged for a closer look

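In the 5 libraries at 300 mg/kg/d, 41 of the 42 genes had a spread that could be examined for a library far from the others, and 3 were picked out by Dixon's criterion, which chance meets in about 1 of 20 groups. Stc2 was at 17.9 TPM in replicate 20, against 22.9 to 24.7 TPM in the other 4. Bhmt was at 6.15 TPM in replicate 20 as well, against 8.46 to 8.83 TPM. In both genes all 5 libraries were below every vehicle library. AABR07045354.1 was at 1.31 TPM in replicate 06, which is 1 read, and at 0 in the other 4.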

How the results depend on the processing

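No paired analysis was possible because the replicate numbers in the labels differ in every group; the sample code, whose meaning the labels do not state, was used as a term instead. The number of stepwise falling genes was 42 and became 25 with a vehicle minimum of 5 TPM, and 29 to 51 when a single library was left out, with 23 to 40 of the 42 shared. CPM gave 56 genes (31 shared), group medians 42 (20 shared), and omission of replicates 05 and 18 gave 46 (27 shared). Which genes pass thus depends on these choices more than how many do. In the edgeR fit, the log2 fold change did not fall from 11 to 100 mg/kg/d for Vsnl1, Selenop, Crabp2, Tp53i3, Smpdl3a, Prdx3 and 1700122O11Rik.

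Of genes called by edgeR at 1 mg/kg/d (0), 1 was called with no low count filter and 3 with only the compared groups. At 11 mg/kg/d (0) the numbers were 19 with no filter, 1 with the sample code as a term, 10 with only the compared groups, 19 without replicates 05 and 18 of 100 mg/kg/d, 24 with DESeq2, and 0 to 2 with single libraries left out. At 100 mg/kg/d (274) they were 45 with only the compared groups, 73 without replicates 05 and 18 (1 library left, assumed to vary like the other groups), 904 with DESeq2, and 93 to 4250 with single libraries left out. Without vehicle replicate 01 there were 94 calls, without 15 there were 99, without 05 there were 162, without 18 there were 93, and without 19 there were 4250. At 300 mg/kg/d (432) they were 270 with the sample code as a term, 835 with only the compared groups, 869 without replicates 05 and 18, 735 with DESeq2, and 212 to 432 with single libraries left out, with 256, 264 and 212 without vehicle replicates 01, 08 and 15.

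Onset by 1 mg/kg/d (2 genes) became 13 when defined by a group mean of at most 0.8 of vehicle, 1 with CPM, and 2 to 9 with single libraries left out, the 9 without vehicle replicate 08. Onset by 11 mg/kg/d (17) became 38 by that mean and 17 to 26 with single libraries left out, the 26 again without vehicle replicate 08. By 100 mg/kg/d (31) it was 42 by that mean, 28 with CPM and 31 to 34 with single libraries left out, and by 300 mg/kg/d (35) it was 42, 35 and 35 to 37. In these changes the cause was not tested.

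The share of vehicle at 300 mg/kg/d was recomputed 416 times over the 42 genes and stayed within 1 SD in 406 and below 100% in every case. The genes were chosen for a share of at most 0.6 in the same libraries. Staying below 100% was therefore nearly fixed by the rule and is no evidence for the fall. For U2 and AABR07045354.1 all vehicle reads were in 1 library, so no share could be formed without it. Reads limit the sparse genes: 17 of the 42 had a vehicle mean under 5 TPM.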
